A study of Mus musculus with 16 samples.

Results

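The genes examined encode 10 transcription factors of the lung epithelium: Nkx2-1, Foxa1, Foxa2, Gata6, Sox9, Id2, Elf5, Cebpa, Tfcp2l1 and Sox2. They were found by symbol among 31465 array features that name a gene. Of the 10 genes, 9 were listed under these symbols, and Tfcp2l1 was listed under its older name and matched through its transcript. Together they had 30 features, all of which passed the filter on dim signals, so all 10 genes were among the 20173 genes tested. RNA from homogenised lungs of mouse pups, taken on postnatal day 3, was measured on 16 one-colour arrays, 4 in each of 4 groups. The groups were Fgf10+/- pups in hyperoxia, wild-type pups in hyperoxia, Fgf10+/- pups in normoxia and wild-type pups in normoxia. Hyperoxia was 85% oxygen from postnatal day 0 to day 3. The Fgf10+/- pups are heterozygous for Fgf10; the allele, the strain and the oxygen level of normoxia are not stated in the labels. The labels name the replicates of a group as separate samples but give no litter. The p-values therefore measure the spread between these samples, and precision is set by having 4 arrays a group.

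The homeodomain factor Nkx2-1 marks the early lung bud and later drives surfactant genes. The winged-helix factors Foxa1 and Foxa2 and the zinc-finger factor Gata6 act with it in the epithelium. Fgf10 from the mesenchyme keeps the distal tips of the branching tree in a progenitor state marked by Sox9 and Id2, while Sox2 marks the proximal airway. Elf5, an ETS factor of distal epithelium, responds to FGF in the embryonic mouse lung. Cebpa, a basic leucine zipper factor, is needed for maturation of type 2 alveolar cells, the makers of surfactant. Tfcp2l1 belongs to the CP2 branch of the grainyhead family and is best known from kidney collecting ducts and pluripotent stem cells.

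The surfactant gene Sftpc stood near the top of the scale in all 4 groups (group means 15.98 to 15.99, log2 intensity). The thyroid hormone precursor gene Tg, from a tissue that also uses Nkx2-1, had group means under the array median of 4.50. Of the 6 thyroid genes tested, only 4 averaged under this median. Fgf10, averaged over its 10 features, spanned 6.96 to 7.47 in Fgf10+/- hyperoxia, 7.28 to 7.66 in wild-type hyperoxia, 7.63 to 8.10 in Fgf10+/- normoxia and 7.35 to 7.81 in wild-type normoxia. Its brightest feature did not differ by genotype at an adjusted p under 0.05 in normoxia (0.48, SE 0.20, adjusted p = 0.334) or hyperoxia (-0.21, SE 0.20, adjusted p = 0.835). Which part of the gene the allele changes, and whether the features lie there, is not known here, so genotypes are named as the labels have them. The wild-type normoxia array of replicate 4 stood apart, with mean levels of 8.11 over 10 cartilage genes, 7.82 over 10 skeletal muscle genes and 6.02 over 10 fat genes. In the other 3 wild-type normoxia arrays these levels were at most 5.30, 4.86 and 4.81. This array enters every normoxia genotype, averaged genotype and wild-type oxygen result. The values without it are given for the factors called in each of these comparisons.

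The comparison of the genotypes asked whether the epithelial factors depend on the Fgf10 genotype. Averaged over both oxygen levels, 6 of the 10 factors were lower in Fgf10+/- lungs and none was higher, while 2.24% of all tested genes were called in either direction and 1.32% were called lower. The 6 were Elf5, Tfcp2l1, Cebpa, Foxa1, Nkx2-1 and Foxa2. Elf5, Tfcp2l1 and Cebpa stood at 57.9%, 58.7% and 60.8% of their wild-type level. The median difference of the 10 factors was -0.46 (log2), against -0.004 for all genes. A call means an adjusted p under 0.05 in limma, a linear model fitted over all genes and all 16 arrays, with Benjamini-Hochberg adjustment over all genes. In a homogenate, fewer epithelial cells and less RNA per epithelial cell cannot be told apart. Pan-epithelial genes moved the same way: 7 of 14 were lower in Fgf10+/- lungs and none was higher (median -0.35). The part of this shift in the factors' differences was not tested. Without wild-type normoxia replicate 4 the same 6 factors and Id2 were called, with Elf5 at -0.83, Tfcp2l1 at -0.75, Cebpa at -0.70, Nkx2-1 at -0.53, Foxa1 at -0.49, Foxa2 at -0.48 and Id2 at -0.44.

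**Figure D1:**
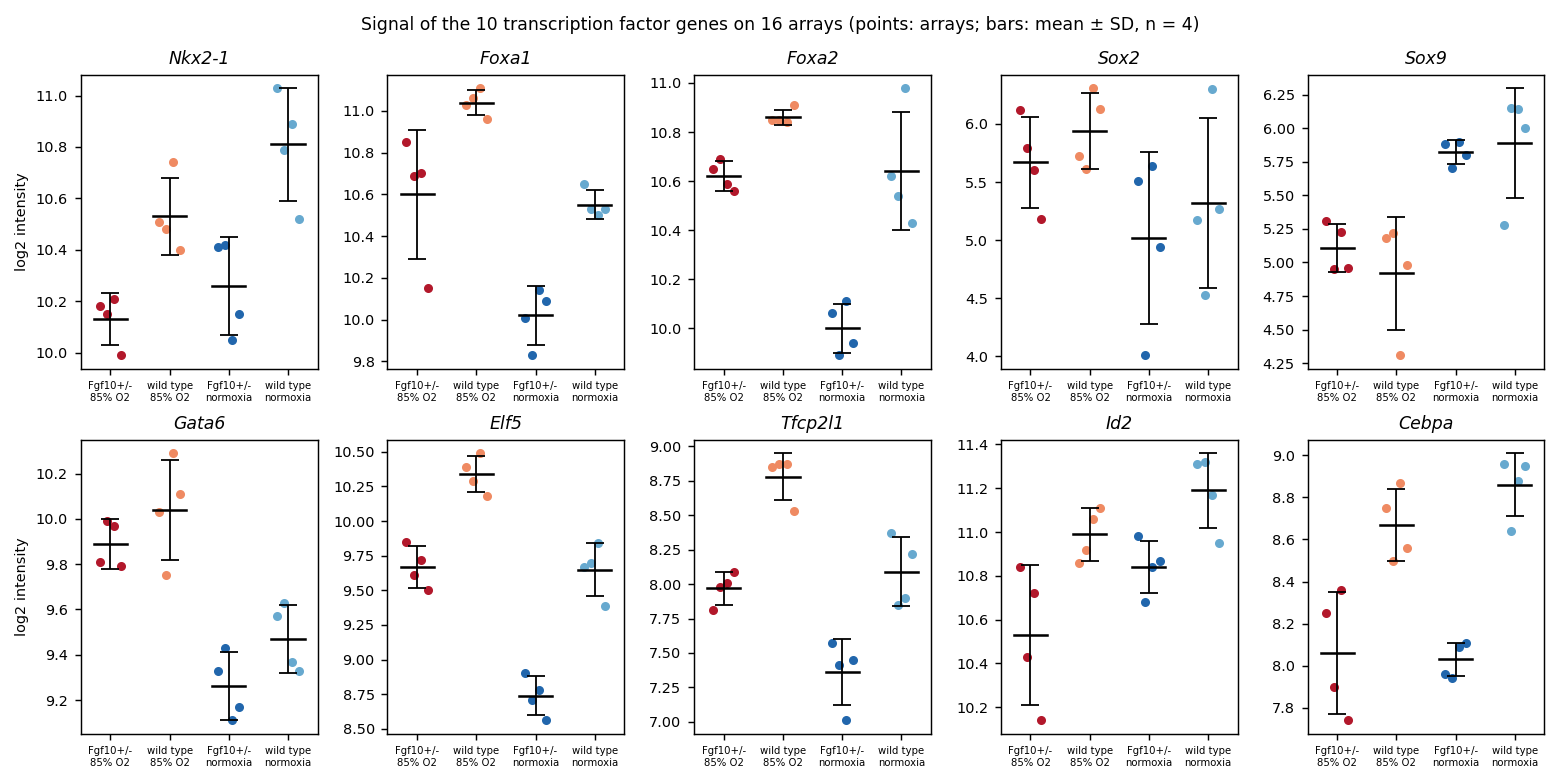
Log2 intensity of the 10 factor genes on each of 16 arrays. Points are arrays, horizontal bars with whiskers are means ± SD (n = 4), and each panel has its own vertical scale. For Elf5 the Fgf10+/- arrays in normoxia lie at 8.56 to 8.90, below all arrays of the other 3 groups.

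Elf5 had log2 intensities of 8.90, 8.71, 8.78 and 8.56 in Fgf10+/- normoxia, against 9.67, 9.70, 9.84 and 9.39 in wild-type normoxia. In hyperoxia it had 9.85, 9.61, 9.72 and 9.50 in Fgf10+/- lungs, against 10.39, 10.29, 10.49 and 10.18 in wild-type lungs. At each oxygen level every Fgf10+/- array lay below every wild-type array. The difference was -0.91 (SE 0.12, limma adjusted p = 0.00388) in normoxia and -0.66 (SE 0.12, adjusted p = 0.0282) in hyperoxia. Leaving out 1 array at a time lost the hyperoxia call in 7 of 8 fits (adjusted p 0.0504 to 0.101), all but that without Fgf10+/- replicate 1. Without wild-type replicate 4 the normoxia difference was -1.0 (adjusted p = 0.00281). Averaged over both oxygen levels the difference was -0.79 (SE 0.08, adjusted p = 0.00043).

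Tfcp2l1 had 7.57, 7.41, 7.01 and 7.45 in Fgf10+/- normoxia, against 8.37, 7.85, 7.90 and 8.22 in wild-type normoxia (difference -0.73, SE 0.15, adjusted p = 0.0369). In hyperoxia it had 7.81, 7.98, 8.01 and 8.09 in Fgf10+/- lungs, against 8.85, 8.87, 8.87 and 8.53 in wild-type lungs (-0.81, SE 0.15, adjusted p = 0.0293). By its brighter feature, the groups did not overlap at either oxygen level. Averaged, the difference was -0.77 (SE 0.10, adjusted p = 0.00165). The calls at single oxygen levels were less secure. In normoxia the call was lost in 6 of 8 fits without 1 array (adjusted p 0.0545 to 0.126), all but those without Fgf10+/- replicate 1 or wild-type replicate 2. The value without wild-type replicate 4 was -0.68 (adjusted p = 0.0545). In hyperoxia it was lost in 7 of 8 such fits, all but that without wild-type replicate 4 (adjusted p 0.0669 to 0.101).

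Cebpa had levels of 7.96, 7.94, 8.09 and 8.11 in Fgf10+/- normoxia, against 8.96, 8.64, 8.88 and 8.95 in wild-type normoxia (difference -0.83, SE 0.14, adjusted p = 0.0132). In hyperoxia they were 8.25, 7.90, 8.36 and 7.74 in Fgf10+/- lungs, against 8.75, 8.50, 8.87 and 8.56 in wild-type lungs (-0.61, SE 0.14, adjusted p = 0.0949, not passed). All 8 Fgf10+/- arrays lay below all 8 wild-type arrays. Of all tested genes, 0.188% were separated so across both oxygen levels, and Cebpa was the only one of the 10 factors by the feature that stands for each gene. Of the 10 Nkx2-1 features, 3 others were also separated so. The averaged difference was -0.72 (SE 0.10, adjusted p = 0.00179). Cebpa is also active in fat and in myeloid cells. Without the wild-type normoxia array that carried fat genes, the normoxia difference was -0.80 (adjusted p = 0.0244), and without wild-type normoxia replicate 1 the call was lost (-0.80, adjusted p = 0.0611). The fat level of the remaining wild-type normoxia arrays was 4.77 to 4.81, against 4.64 to 4.75 in Fgf10+/- normoxia. Of 9 macrophage and other myeloid genes, none passed in the averaged genotype comparison (median 0.15). The part of fat or myeloid cells in the Cebpa difference was not tested.

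Among the factors that act throughout the lung epithelium, Nkx2-1 had 10.41, 10.42, 10.05 and 10.15 in Fgf10+/- normoxia, against 11.03, 10.79, 10.89 and 10.52 in wild-type normoxia. In hyperoxia it had 10.18, 10.15, 10.21 and 9.99 in Fgf10+/- lungs, against 10.51, 10.48, 10.74 and 10.40 in wild-type lungs. The genotypes did not overlap at either oxygen level, yet the differences of -0.55 (SE 0.13, adjusted p = 0.0646) and -0.41 (SE 0.13, adjusted p = 0.282) did not pass separately. Averaged over both, Nkx2-1 stood at 71.8% of its wild-type level (-0.48, SE 0.09, adjusted p = 0.012). In normoxia the difference passed without wild-type replicate 4 (-0.65, adjusted p = 0.023). It did not pass in the other 7 fits without 1 array (adjusted p 0.0627 to 0.196).

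Foxa1 had 10.01, 9.83, 10.14 and 10.09 in Fgf10+/- normoxia, against 10.65, 10.53, 10.50 and 10.53 in wild-type normoxia (-0.53, SE 0.13, adjusted p = 0.0816). In hyperoxia it had 10.85, 10.69, 10.70 and 10.15 in Fgf10+/- lungs, against 11.03, 11.06, 11.11 and 10.96 in wild-type lungs (-0.44, SE 0.13, adjusted p = 0.24). Neither passed on its own although the groups did not overlap, and the average did (-0.49, SE 0.09, adjusted p = 0.0122). Without Fgf10+/- hyperoxia replicate 4, the lowest of its group and the array with the highest cardiac gene level, the Foxa1 difference in hyperoxia was -0.29 (adjusted p = 0.414). Foxa2 had 10.06, 9.89, 10.11 and 9.94 in Fgf10+/- normoxia, against 10.62, 10.54, 10.98 and 10.43 in wild-type normoxia. In hyperoxia it had 10.65, 10.69, 10.59 and 10.56 in Fgf10+/- lungs, against 10.85, 10.85, 10.84 and 10.91 in wild-type lungs. The Foxa2 difference was -0.64 (SE 0.11, adjusted p = 0.0132) in normoxia and -0.24 (SE 0.11, adjusted p = 0.52) in hyperoxia. By its brighter feature, all arrays separated at both levels. The normoxia call was lost when any of 3 arrays was removed: Fgf10+/- replicate 2 (adjusted p = 0.051), Fgf10+/- replicate 4 (0.0524) and wild-type replicate 1 (0.0511). It held without wild-type replicate 4 (-0.71, adjusted p = 0.00976). Averaged, Foxa2 stood at 73.6% of wild type (-0.44, SE 0.08, adjusted p = 0.00769).

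Gata6, the last of this group, did not pass. It had 9.33, 9.43, 9.11 and 9.17 in Fgf10+/- normoxia, against 9.57, 9.63, 9.37 and 9.33 in wild-type normoxia, and 9.81, 9.99, 9.97 and 9.79 in Fgf10+/- hyperoxia, against 10.03, 9.75, 10.29 and 10.11 in wild-type hyperoxia. The genotypes overlapped at both oxygen levels, and the averaged difference was -0.19 (95% interval -0.37 to 0.00, adjusted p = 0.353).

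Of the tip progenitor factors, Id2, a helix-loop-helix protein without a DNA-binding part, had 10.98, 10.68, 10.84 and 10.87 in Fgf10+/- normoxia, against 11.31, 11.32, 11.17 and 10.95 in wild-type normoxia. In hyperoxia it had 10.84, 10.43, 10.72 and 10.14 in Fgf10+/- lungs, against 10.86, 10.92, 11.06 and 11.11 in wild-type lungs. The groups overlapped by 1 array in normoxia and did not overlap in hyperoxia. The averaged difference of -0.40 (SE 0.10, adjusted p = 0.0564) just missed the threshold. It passed without Fgf10+/- hyperoxia replicate 1 (-0.45, adjusted p = 0.0281) and without wild-type normoxia replicate 4 (-0.44, adjusted p = 0.0356). The other 14 fits without 1 array did not pass (-0.43 to -0.34, adjusted p 0.0539 to 0.119).

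Sox9 was dim, with group means between 4.92 and 5.89, little above the array median. It had 5.88, 5.70, 5.90 and 5.80 in Fgf10+/- normoxia, against 5.28, 6.15, 6.14 and 6.0 in wild-type normoxia, and the averaged genotype difference was 0.06 (SE 0.15, adjusted p = 0.912). That feature was the only one of 10 above 0 in the averaged comparison. The other 9 were below 0 (median of all 10 -0.25), and in normoxia all 10 were. The mean of all 10 Sox9 features gave -0.29 (adjusted p = 0.0829), which did not pass. The airway factor Sox2 was also dim and scattered over 4.01 to 5.64 in Fgf10+/- normoxia and 4.53 to 6.30 in wild-type normoxia. Its averaged difference was -0.28 (95% interval -0.86 to 0.30, adjusted p = 0.72), so changes of this size were not detectable here.

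**Figure D2:**
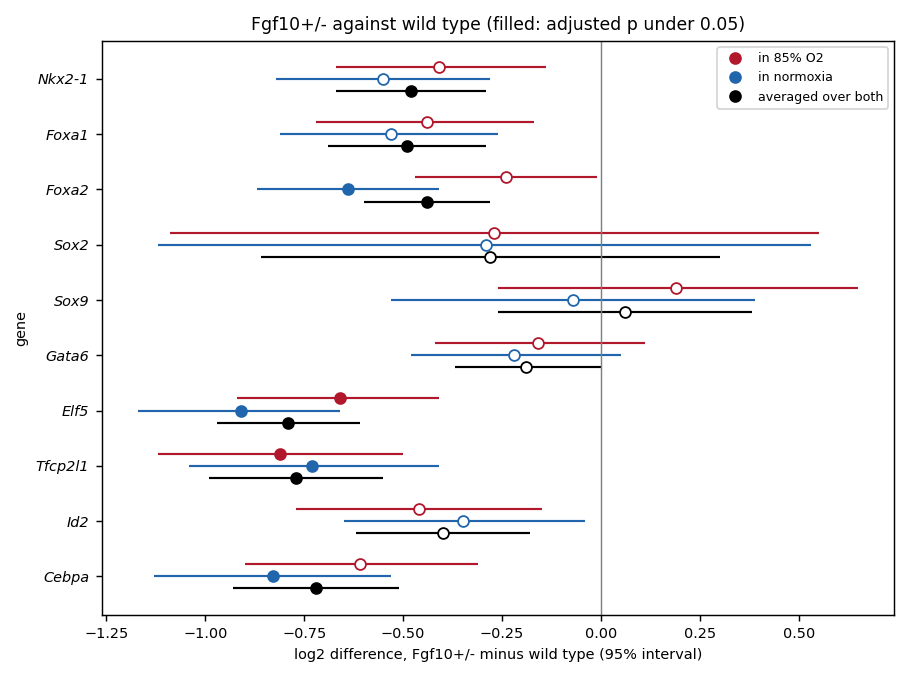
Log2 difference of each factor, Fgf10+/- minus wild type, in hyperoxia, in normoxia and averaged, with 95% intervals from limma. Filled points passed an adjusted p under 0.05. For 9 of 10 factors the averaged difference lies below 0, from -0.79 for Elf5, and that of Sox9 is 0.06.

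At single oxygen levels the calls were fewer. In normoxia 4 of 10 factors were lower (Elf5, Cebpa, Foxa2 and Tfcp2l1), while 0.719% of all genes were called and 0.605% called lower, and all 10 differences were below 0, as were 50.5% of those of all genes. In hyperoxia 2 were lower (Elf5 and Tfcp2l1), against 0.411% of all genes called and 0.119% called lower. Complete separation of the 4 Fgf10+/- from the 4 wild-type arrays, with Fgf10+/- lower, was seen for 6 factors in normoxia and 7 in hyperoxia. These counts are by the feature that stands for each gene. Of all genes, 4.52% and 2.85% were separated in that direction. A fit to only the 8 arrays of an oxygen level called 0 factors and 0 genes in either case, so the calls at single oxygen levels rest on the spread pooled over all 4 groups. Both oxygen levels enter the averaged comparison, so it adds no arrays to them.

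Promoter windows of the 6 factors that were lower in Fgf10+/- lungs are shown because these genes moved together. Each window runs from 250 bases before to 50 after a transcript start, 5′ to 3′ on the gene's strand, from RefSeq on build GRCm38.p6. The most upstream start is shown where RefSeq gives several, as for Elf5 with 2 windows and Foxa2 with 3. Capitals mark matches, on either strand, to TGTTTAC (a FOXA motif), CAAGTG (an NKX2-1 motif), GGGCGG (a GC box), CCAAT and TATAAA.
Elf5, chr2:103411848-103412147, plus strand: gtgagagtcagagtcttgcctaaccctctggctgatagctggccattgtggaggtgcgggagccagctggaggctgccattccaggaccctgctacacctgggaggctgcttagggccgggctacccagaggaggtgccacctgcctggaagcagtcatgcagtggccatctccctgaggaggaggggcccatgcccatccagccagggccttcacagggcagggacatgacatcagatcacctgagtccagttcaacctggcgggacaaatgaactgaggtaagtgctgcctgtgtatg
Tfcp2l1, chr1:118627695-118627994, plus strand: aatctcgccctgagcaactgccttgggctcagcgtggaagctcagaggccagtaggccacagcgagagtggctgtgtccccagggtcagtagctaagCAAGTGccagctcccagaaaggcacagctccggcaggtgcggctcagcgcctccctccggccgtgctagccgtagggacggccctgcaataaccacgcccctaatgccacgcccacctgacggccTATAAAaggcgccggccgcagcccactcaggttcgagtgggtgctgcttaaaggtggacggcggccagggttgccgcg
Cebpa, chr7:35119043-35119342, plus strand: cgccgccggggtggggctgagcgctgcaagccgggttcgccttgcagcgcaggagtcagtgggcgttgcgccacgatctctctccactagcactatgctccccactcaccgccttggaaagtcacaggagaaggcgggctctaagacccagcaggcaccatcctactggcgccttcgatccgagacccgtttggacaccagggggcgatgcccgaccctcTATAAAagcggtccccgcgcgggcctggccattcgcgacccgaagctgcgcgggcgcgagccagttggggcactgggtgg
Nkx2-1, chr12:56536859-56537158, minus strand: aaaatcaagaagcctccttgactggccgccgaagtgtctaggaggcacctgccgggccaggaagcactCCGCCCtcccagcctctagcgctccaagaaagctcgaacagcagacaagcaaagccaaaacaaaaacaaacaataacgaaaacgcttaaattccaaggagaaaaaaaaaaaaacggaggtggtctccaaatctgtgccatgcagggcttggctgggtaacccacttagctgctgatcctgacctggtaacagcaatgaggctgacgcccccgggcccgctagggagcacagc
Foxa1, chr12:57546062-57546361, minus strand: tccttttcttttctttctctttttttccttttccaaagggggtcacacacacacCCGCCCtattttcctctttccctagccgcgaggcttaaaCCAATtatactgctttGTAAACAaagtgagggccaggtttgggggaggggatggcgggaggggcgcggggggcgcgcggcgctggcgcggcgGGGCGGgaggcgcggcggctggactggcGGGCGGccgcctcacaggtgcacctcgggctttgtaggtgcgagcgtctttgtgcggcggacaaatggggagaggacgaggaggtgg
Foxa2, chr2:148046920-148047219, minus strand: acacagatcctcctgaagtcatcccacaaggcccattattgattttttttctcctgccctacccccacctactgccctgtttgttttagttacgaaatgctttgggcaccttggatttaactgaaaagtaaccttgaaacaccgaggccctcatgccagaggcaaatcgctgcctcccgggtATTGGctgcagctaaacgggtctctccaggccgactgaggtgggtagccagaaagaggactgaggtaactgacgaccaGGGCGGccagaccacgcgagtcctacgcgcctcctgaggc
The Foxa1 window holds the FOXA letters at position -141 from the start, a match found in 3.65% of 32851 such windows. The Tfcp2l1 window holds the NKX2-1 letters at -153 (13.6% of windows) and TATAAA at -28, and the Cebpa window holds TATAAA at -30 (13.6% of windows). Over the 11 windows of the 8 factors with an entry, the FOXA and NKX2-1 letters each occurred in 1 window, and GC boxes in 7 (35.7% of all windows). No motif was common to the 6 windows shown, and the Elf5 window held none of the 5. A match is a run of letters, not a measured site.

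The comparison of oxygen levels asked how the factors respond to hyperoxia. Elf5, Foxa1, Gata6 and Tfcp2l1 rose in both genotypes, Foxa2 rose in Fgf10+/- lungs, and Sox9 fell in both. In Fgf10+/- lungs 5 factors rose and 1 fell, where 23.7% of all genes were called, 13.0% up and 10.7% down. In wild-type lungs 4 rose and 1 fell, where 19.1% of all genes were called, 10.3% up and 8.74% down. Pan-epithelial genes rose as well, 8 of 14 in each genotype, with medians of 0.85 in Fgf10+/- and 0.54 in wild-type lungs. Nkx2-1, Id2 and Cebpa did not pass in either genotype.

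Elf5 averaged 9.67 ± 0.15 in Fgf10+/- hyperoxia and 8.74 ± 0.14 in Fgf10+/- normoxia (log2 intensity, SD, n = 4), a rise of 0.93 (SE 0.12, adjusted p = 8.52e-05). It averaged 10.34 ± 0.13 in wild-type hyperoxia and 9.65 ± 0.19 in wild-type normoxia, a rise of 0.69 (SE 0.12, adjusted p = 0.00108). This was the largest rise of the 10 factors in Fgf10+/- lungs, and in wild-type lungs that of Tfcp2l1 was of the same size (0.70, SE 0.15, adjusted p = 0.00393). Tfcp2l1 rose by 0.61 (SE 0.15, adjusted p = 0.00703) in Fgf10+/- lungs. Gata6 averaged 9.89 ± 0.11 in Fgf10+/- hyperoxia and 9.26 ± 0.15 in Fgf10+/- normoxia, a rise of 0.63 (adjusted p = 0.00185), and rose by 0.57 (adjusted p = 0.00464) in wild-type lungs. Foxa1 rose by 0.58 (adjusted p = 0.00482) in Fgf10+/- and by 0.49 (adjusted p = 0.016) in wild-type lungs. By the feature that stands for each of these 4 genes, all hyperoxia arrays lay above all normoxia arrays of the same genotype. The same held for 13.8% of all genes in Fgf10+/- and 13.6% in wild-type lungs. Gata6 is also a heart factor, and cardiac genes were highest in Fgf10+/- hyperoxia replicate 4 (mean level 11.09, against 9.62 to 10.22 in the other 3 arrays). Without it the Gata6 rise in Fgf10+/- lungs was 0.66 (adjusted p = 0.00314). The part of heart tissue in this rise was not tested. Without wild-type normoxia replicate 4 all 4 rises in wild-type lungs still passed, at 0.74 for Tfcp2l1, 0.60 for Elf5, 0.52 for Gata6 and 0.48 for Foxa1.

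Foxa2 averaged 10.62 ± 0.06 (range 10.56 to 10.69) in Fgf10+/- hyperoxia and spanned 9.89 to 10.11 in Fgf10+/- normoxia, a rise of 0.62 (SE 0.11, adjusted p = 0.00082). In wild-type lungs it averaged 10.86 ± 0.03 in hyperoxia and 10.64 ± 0.24 in normoxia, and the difference of 0.22 (SE 0.11, adjusted p = 0.189) did not pass. Of 8 fits without 1 array, only that without wild-type normoxia replicate 3, the highest array at 10.98, passed (0.33, adjusted p = 0.0214). Without wild-type normoxia replicate 4 the difference was 0.15 (adjusted p = 0.42).

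Sox9 averaged 5.11 ± 0.18 in Fgf10+/- hyperoxia and 5.82 ± 0.09 in Fgf10+/- normoxia, a fall of -0.71 (SE 0.21, adjusted p = 0.0259). It averaged 4.92 ± 0.42 in wild-type hyperoxia and 5.89 ± 0.41 in wild-type normoxia, a fall of -0.97 (SE 0.21, adjusted p = 0.00526). In each genotype the hyperoxia arrays lay below all normoxia arrays, as for 11.1% of all genes in Fgf10+/- and 11.2% in wild-type lungs. Of the 10 features, 4 were separated so in Fgf10+/- and 8 in wild-type lungs. The Fgf10+/- call was lost in 5 of 8 fits without 1 array, those without hyperoxia replicate 2 or 4 or normoxia replicate 1, 3 or 4 (adjusted p between 0.0512 and 0.0673). The mean of the 10 Sox9 features gave -0.68 (adjusted p = 0.000582) in Fgf10+/- and -0.97 (adjusted p = 6.3e-05) in wild-type lungs. Sox9 is also a cartilage factor. Without the wild-type normoxia array that carried cartilage genes, the wild-type fall was -0.94 (adjusted p = 0.0166). The part of cartilage in the Sox9 falls was not tested.

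Id2, the other tip factor, differed by -0.31 (95% interval -0.62 to -0.00, adjusted p = 0.14) in Fgf10+/- and by -0.20 (-0.51 to 0.11, adjusted p = 0.391) in wild-type lungs. Nkx2-1 differed by -0.13 (-0.40 to 0.14, adjusted p = 0.527) in Fgf10+/- and by -0.27 (-0.54 to -0.00, adjusted p = 0.154) in wild-type lungs. Cebpa differed by 0.04 (-0.26 to 0.33, adjusted p = 0.889) in Fgf10+/- and by -0.19 (-0.48 to 0.11, adjusted p = 0.404) in wild-type lungs. Their intervals leave out rises of the size of Elf5 in the same genotype. Sox2 averaged 5.67 ± 0.39 in Fgf10+/- hyperoxia and 5.02 ± 0.74 in Fgf10+/- normoxia, and 5.94 ± 0.33 in wild-type hyperoxia and 5.32 ± 0.73 in wild-type normoxia. Its differences of 0.65 and 0.63 did not pass (adjusted p = 0.261 and 0.299), with an SE of 0.38.

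**Figure D3:**
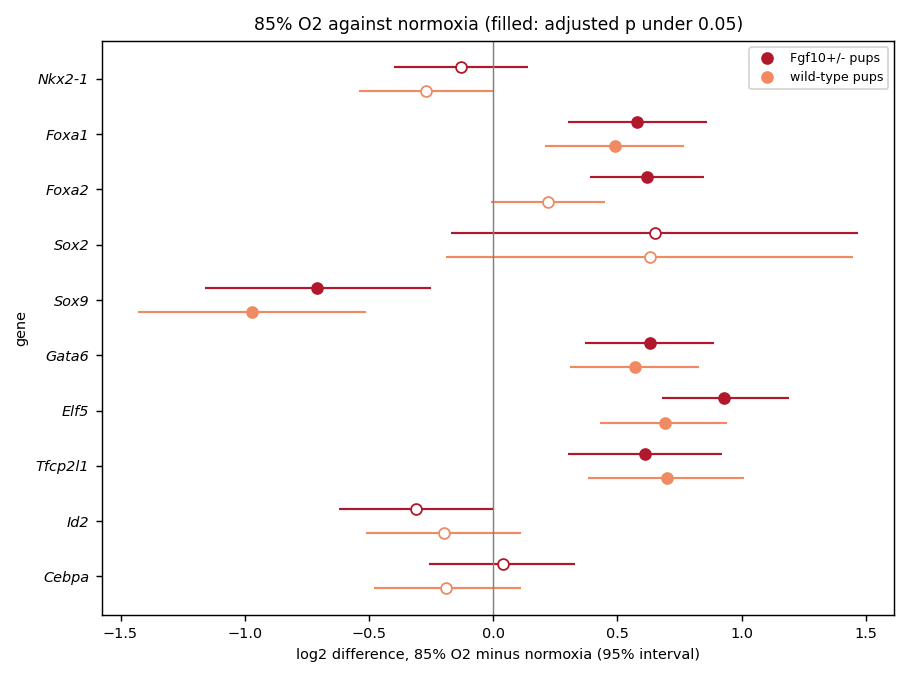
Log2 difference of each factor, hyperoxia minus normoxia, in Fgf10+/- and in wild-type pups, with 95% intervals from limma. Filled points passed an adjusted p under 0.05. Elf5, Foxa1, Gata6 and Tfcp2l1 are filled to the right of 0 in both genotypes, and Sox9 to the left.

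No factor passed the test of a difference between the responses of the genotypes, and neither did any other gene (limma, 0 of 20173 genes, 0.0%). An unadjusted p under 0.05 was reached by 1 factor and by 6.62% of all genes. That factor was Foxa2, whose response was larger by 0.40 (SE 0.15, unadjusted p = 0.0192, adjusted p = 0.723) in Fgf10+/- lungs. The Foxa2 response is thus not shown to differ between the genotypes, although it passed in only 1 of them.

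Genotype and oxygen pulled several factors in opposite directions, so the 4 groups had different orders. For Foxa1, Elf5, Gata6 and Sox2, wild-type hyperoxia was highest and Fgf10+/- normoxia lowest. Gata6 and Sox2 did not pass by genotype, and Sox2 did not pass by oxygen either. The Elf5 levels of Fgf10+/- hyperoxia (9.67 ± 0.15) and wild-type normoxia (9.65 ± 0.19) lay within their spread of each other, and so did those of Foxa1 (10.60 ± 0.31 and 10.55 ± 0.07). Foxa2 and Tfcp2l1 had the same highest and lowest groups, and again Fgf10+/- hyperoxia and wild-type normoxia did not differ beyond their spread (10.62 ± 0.06 and 10.64 ± 0.24 for Foxa2, 7.97 ± 0.12 and 8.09 ± 0.25 for Tfcp2l1). Nkx2-1 and Id2 had another order, highest in wild-type normoxia and lowest in Fgf10+/- hyperoxia. Nkx2-1 averaged 10.13 ± 0.10 in Fgf10+/- hyperoxia, 10.53 ± 0.15 in wild-type hyperoxia, 10.26 ± 0.19 in Fgf10+/- normoxia and 10.81 ± 0.22 in wild-type normoxia. Cebpa formed a pair of low groups (8.06 ± 0.29 in Fgf10+/- hyperoxia and 8.03 ± 0.08 in Fgf10+/- normoxia) and a pair of high ones (8.67 ± 0.17 in wild-type hyperoxia and 8.86 ± 0.15 in wild-type normoxia).

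Some genes were read by several features. The files do not say whether these are repeats of 1 probe or different probes, so the spread among them cannot be assigned to either. Nkx2-1 and Sox9 had 10 features each, Foxa2 and Tfcp2l1 had 2, and the other 6 factors had 1. All 10 Nkx2-1 features were lower in Fgf10+/- lungs at both oxygen levels, by 0.55 to 0.73 in normoxia and 0.31 to 0.49 in hyperoxia (log2), and for each of them the genotypes did not overlap. Their mean passed in normoxia (-0.64, adjusted p = 0.0138). The features also read Nkx2-1 lower in hyperoxia, 10 of 10 in each genotype, and their mean passed in wild-type lungs (-0.36, adjusted p = 0.0276), where the single feature did not. The features share the same arrays and add no replicates. The Sox9 features agreed in hyperoxia against normoxia, with 10 of 10 lower in each genotype, but not in the genotype comparison in hyperoxia, where they ran from -0.80 to 0.50 and 7 of 10 were below 0. The weaker Foxa2 feature showed a larger genotype difference in normoxia (-1.03) than the stronger (-0.64), and a larger response to oxygen in Fgf10+/- lungs (1.05 and 0.62). In hyperoxia the genotypes overlapped for this weaker feature (up to 8.35 in Fgf10+/-, from 8.22 in wild-type lungs). The 2 Tfcp2l1 features gave -0.69 and -0.73 in normoxia, but their mean did not pass (-0.71, adjusted p = 0.123), nor did it in hyperoxia (-0.78, adjusted p = 0.132). For the weaker Tfcp2l1 feature the genotypes overlapped in normoxia (up to 7.43 in Fgf10+/-, from 7.19 in wild-type lungs). Its oxygen levels also overlapped in each genotype.

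**Figure D4:**
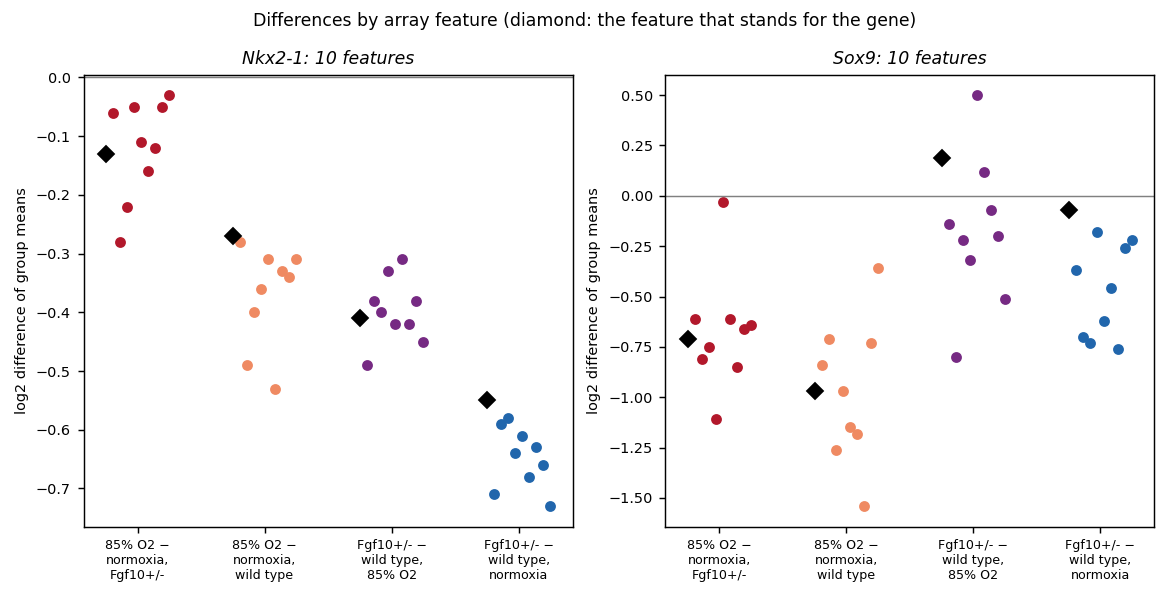
Log2 differences of group means for each of the 10 Nkx2-1 features and the 10 Sox9 features. Diamonds mark the feature that stands for the gene in the tests. The Nkx2-1 features lie below 0 in all 4 comparisons, and the Sox9 features straddle 0 in the genotype comparison in hyperoxia (-0.80 to 0.50).

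Genes known to be driven by Nkx2-1, Foxa or Cebpa in lung epithelium moved the same way as the factors in the genotype comparison. Of 16 tested, 7 were lower in Fgf10+/- lungs on average over both oxygen levels, 9 did not pass and none was higher (median -0.34). Of all genes, 1.32% were called lower. Pan-epithelial genes had a similar median (-0.35), and whether the targets followed the factors was not tested. The largest falls among the 4 with the smallest p were those of the phosphate transporter gene Slc34a2 (-0.75, SE 0.09, adjusted p = 0.00106) and the surfactant lipid enzyme gene Lpcat1 (-0.71, SE 0.09, adjusted p = 0.000914). The lipid transporter gene Abca3 (-0.62) and the protease gene Napsa (-0.62) followed. Sftpc, at the top of the scale, could show no difference. In hyperoxia against normoxia, 8 of these 16 rose and 1 fell in Fgf10+/- lungs, and 4 rose and 1 fell in wild-type lungs. Of all genes, 13.0% rose and 10.7% fell in Fgf10+/- lungs, and 10.3% rose and 8.74% fell in wild-type lungs. The target gene that fell in wild-type lungs was the lysozyme gene Lyz2 (-1.44, SE 0.21, adjusted p = 0.000338), which macrophages also express.

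Other transcription factors were less uniform, though the 10 factors and these lists were chosen with earlier results of these data known. Of 18 other factors of distal and alveolar epithelium, 2 were lower and 1 was higher in Fgf10+/- lungs on average (median -0.04). Etv5, an ETS factor induced by FGF receptors, was lower by -0.57 (SE 0.06, adjusted p = 0.000409), and passed at both oxygen levels (-0.73 in normoxia, adjusted p = 0.00124, and -0.41 in hyperoxia, adjusted p = 0.048). Irx2, an Iroquois homeobox factor, was lower (-0.60, adjusted p = 0.0345), and the cell cycle factor Foxm1 was higher (0.60, adjusted p = 0.0448). Of 19 airway and general epithelial factors, only Grhl2, a grainyhead factor of epithelial junctions, passed (-0.52, SE 0.09, adjusted p = 0.00721). Of 18 relatives of the 10 factors, among them Id1, Id3, the Gata factors and Cebpg, none passed in the averaged genotype comparison (median 0.07). Mitosis genes moved the other way, with 8 of 8 higher in Fgf10+/- lungs (median 0.97), for example the cyclin gene Ccnb2 (1.01, SE 0.13, adjusted p = 0.00133). Of all 20173 genes, 185 were called higher. At single oxygen levels, 1 of the 8 mitosis genes passed in normoxia (median 0.58) and 6 in hyperoxia (median 1.38).

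In hyperoxia, Grhl2 rose in both genotypes (0.89 in Fgf10+/-, adjusted p = 0.000161, and 0.90 in wild type, adjusted p = 0.000234). Hopx, a homeobox protein of type 1 alveolar cells, rose by 1.37 (adjusted p = 2.03e-06) in Fgf10+/- and by 1.04 (adjusted p = 2.16e-05) in wild-type lungs. Among relatives, Cebpg, a dimer partner of other Cebp proteins, fell in both genotypes (-1.17 in Fgf10+/- and -1.25 in wild type), while its chromosomal neighbour Cebpa did not pass. Gata2, an endothelial and blood factor, rose by 0.85 in Fgf10+/- and 0.90 in wild-type lungs, and Id3 fell by 0.65 (adjusted p = 0.00449) in Fgf10+/- and by 0.54 (adjusted p = 0.0162) in wild-type lungs. All 8 mitosis genes fell in both genotypes, with medians of -1.57 in Fgf10+/- and -2.40 in wild-type lungs.

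**Figure D5:**
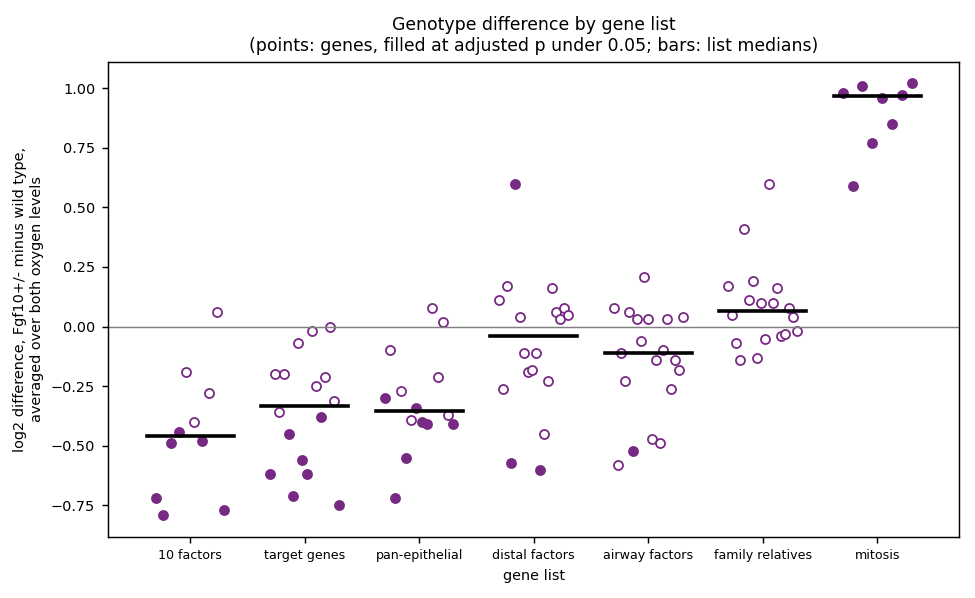
Log2 difference, Fgf10+/- minus wild type and averaged over both oxygen levels, for the genes of 7 lists. Points are genes, filled at a limma adjusted p under 0.05, and bars are list medians. The medians are -0.46 for the 10 factors, -0.34 for target genes, -0.35 for pan-epithelial genes, -0.04, -0.11 and 0.07 for the other factor lists and 0.97 for mitosis genes.

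Markers of other tissues that use these factors were compared beside them. Of the tested genes, none of 10 fat, 9 myeloid, 6 thyroid, 8 oesophageal, 10 cartilage, 10 skeletal muscle, 8 cardiac, 7 lymphoid, 6 neural or 7 smooth muscle genes passed in the averaged genotype comparison. Some lists still ran low there. Skeletal muscle genes were below 0 in 7 of 10 cases (median -0.64) and cardiac genes in 7 of 8 (-0.36). Fat genes were below 0 in 9 of 10 cases (-0.20) and cartilage genes in 8 of 10 (-0.09). The medians of the other lists lay between 0.01 and 0.23. In normoxia, where 4 factors were lower, some of these lists also ran low in Fgf10+/- lungs. Cardiac genes were below 0 in 8 of 8 cases (median -0.77), and 1 passed, the troponin gene Tnnt2 (-0.81, SE 0.17, adjusted p = 0.0494). Their mean level was 9.50 to 10.20 in Fgf10+/- normoxia and 10.18 to 10.62 in wild-type normoxia. Fat genes were below 0 in 9 of 10 cases (median -0.21), and 1 passed, the lipid droplet gene Cidec (-1.26, SE 0.26, adjusted p = 0.0463). Skeletal muscle genes were below 0 in 9 of 10 cases (median -1.07) and none passed. Fat levels were 4.64 to 4.75 in Fgf10+/- normoxia and 4.77 to 6.02 in wild-type normoxia, and skeletal muscle levels were 4.42 to 4.77 in Fgf10+/- normoxia and 4.58 to 7.82 in wild-type normoxia, both highest in wild-type replicate 4. The part of these lists in the factors' differences was not tested. The mean level of the thyroid genes per array was 4.38 to 4.67 in Fgf10+/- hyperoxia, 4.41 to 4.76 in wild-type hyperoxia, 4.40 to 5.09 in Fgf10+/- normoxia and 4.57 to 4.71 in wild-type normoxia. Of the 6 thyroid genes, 4 averaged under the array median. Oesophageal genes, a further tissue that uses Sox2, spanned 4.44 to 4.87 in Fgf10+/- hyperoxia, 4.29 to 4.88 in wild-type hyperoxia, 4.13 to 4.64 in Fgf10+/- normoxia and 4.12 to 4.37 in wild-type normoxia, with 5 of 8 under the array median. The ranges of the pan-epithelial list were 8.95 to 9.28 in Fgf10+/- hyperoxia, 9.26 to 9.58 in wild-type hyperoxia, 8.39 to 8.59 in Fgf10+/- normoxia and 8.77 to 8.99 in wild-type normoxia. The genotypes thus overlapped slightly in hyperoxia and did not overlap in normoxia.

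For each factor called in any comparison, the 2 genes with the most similar values on the 16 arrays were sought among 17890 named genes. Likeness was the root mean square difference of log2 values, each gene centred on its own mean. The nearest gene to Elf5 was the tight junction gene Cldn3 (0.144, while Elf5 itself varied by 0.584 around its mean), followed by Rap1gap (0.148). The nearest to Cebpa were Rbpjl (0.18) and Etv5 (0.187), against 0.401 for Cebpa itself. Nedd4l (0.136) and Sec14l3 (0.138) were nearest to Foxa2, Ppp1r16a (0.125) and Acot1 (0.131) to Foxa1, and Aifm3 (0.207) and Echdc3 (0.213) to Tfcp2l1. Tgoln1 (0.114) and Stxbp3 (0.122) were nearest to Gata6, and Pdcl3 (0.21) and Pcdhac2 (0.22) to Sox9, whose features scattered more. The nearest to Nkx2-1 was Mbip (0.131), followed by Lrrc45 (0.171), while Nkx2-1 varied by 0.299. Mbip was lower in Fgf10+/- lungs on average (-0.50, adjusted p = 0.0233). It was picked because its values on these arrays follow those of Nkx2-1, so this is not a separate result.

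Mbip lies near Nkx2-1 on chromosome 12, so the nearest tested gene on each side of every factor was examined, a choice made after these values were seen. Of these 20 neighbours, 1 passed in the averaged genotype comparison, and their median was -0.03. It was Sfta3-ps, annotated as a long non-coding RNA between Mbip and Nkx2-1. Sfta3-ps averaged 11.99 ± 0.08 in Fgf10+/- hyperoxia, 12.52 ± 0.06 in wild-type hyperoxia, 11.70 ± 0.10 in Fgf10+/- normoxia and 12.38 ± 0.15 in wild-type normoxia. All Fgf10+/- arrays lay below all wild-type arrays (-0.60, SE 0.06, adjusted p = 0.00043). The neighbour on the other side, the related homeobox gene Nkx2-9, did not pass (0.08, SE 0.19, adjusted p = 0.905).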

How the data were processed

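Total RNA of lung homogenates was extracted, amplified and given the dye Cy3, per the labels' protocols. The authors deposited log2 intensities of 62976 features, with 33 missing values. Array medians differ by at most 0.000677 and the top value is 15.99, so the arrays share a scale. Background correction, normalization, slides and scans are not stated in the material used. Of the features, 31465 name 1 gene, 0 several and 31511 none. Symbols were updated through RefSeq transcripts for 29050 features. A feature was kept above the 25th percentile of its array on at least 4 of 16 arrays, and the kept feature with the highest mean stood for a gene. Limma 3.58.1 in R 4.3.3 fitted a mean per group to all 16 arrays (12 residual and 2.13 prior degrees of freedom), with 6 contrasts. The procedure was tested on simulated data. Residual correlations of same-numbered replicates in different groups lay between -0.029 and 0.087. Differently numbered replicates were not compared, and the main fit used no pairing. The members, gene lists and alternatives were chosen with earlier results of these data known. All 10 factors are named, plus up to 4 genes with the smallest p per list and comparison, and the 2 most alike genes per called factor. Alternatives were other filters, feature means, scalings and model settings, fits to the compared groups, a replicate block and fits without each array.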

Additional observations from a re-analysis of the deposited data

Results flagged for a closer look

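The wild-type normoxia array of replicate 1 had Sox9 at 5.28, far from the other 3 arrays of its group. The wild-type hyperoxia array of replicate 4 had Tfcp2l1 at 8.53, likewise far below its group. Both were found among 40 groups of 4 values, by the gap to the nearest array divided by the range of the group, and chance marks about 1 in 20 such groups.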

How the results depend on the processing

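Of the alternatives tried for the 10 factors, 1025 values of a gene in a comparison kept direction and side of the threshold, 40 lost a call, 14 gained one and 21 changed sign, all of the last for differences that were not called. Differences not called at first are among the 1025 and had no call to lose. Most lost calls were genotype calls at single oxygen levels, and the rest were that of Sox9 for oxygen in Fgf10+/- lungs. The 6 calls averaged over both oxygen levels held in every alternative run on them. With a filter at the 50th percentile the genes called were 701 (averaged genotype difference), 126 (genotype in hyperoxia) and 283 (genotype in normoxia), and with trend and robust eBayes 827, 223 and 433, against 452, 83 and 145. Factors called in hyperoxia were 4 with trend and robust eBayes, and 1 with the mean of features, against 2. The mean of features called 94 genes in normoxia. Fits to only the compared groups called 0 factors and 0 genes by genotype at either oxygen level. The main fit did not pair samples by replicate number. With the replicate block, 37 genes and 1 factor were called by genotype in hyperoxia, Tfcp2l1 lost its calls in normoxia (adjusted p = 0.0568) and hyperoxia (0.0642), and Sox9 its call in Fgf10+/- hyperoxia (0.0511). Sox9 turned to -0.29 (averaged) and -0.14 (genotype in hyperoxia) with the mean of features, and the Sox2 interaction to -0.01 with quantile normalization.

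Leaving out each array gave 294 (without wild-type normoxia replicate 1) to 607 (without wild-type normoxia replicate 4) genes and 6 to 7 factors in the averaged comparison. It gave 44 to 292 genes for the same 2 arrays, and 1 to 4 factors, in normoxia. It gave 13 (without Fgf10+/- replicate 4) to 80 genes and 0 to 1 factors in hyperoxia, and 0 to 1 genes for the interaction. For oxygen, 3996 to 4599 genes and 5 to 6 factors were called in Fgf10+/-, and 3078 to 3497 genes and 5 to 6 factors in wild-type lungs. The uncalled differences that changed sign spanned -0.06 to 0.14 (Cebpa, oxygen in Fgf10+/-), -0.56 to 0.04 (Sox2, genotype in normoxia), -0.04 to 0.11 (Sox9, averaged), -0.01 to 0.29 (Sox9, genotype in hyperoxia) and -0.27 to 0.01 (Sox9, genotype in normoxia). The interaction spanned -0.04 to 0.14 for Gata6, -0.22 to 0.02 for Id2 and -0.32 to 0.29 for Sox2. The causes were not tested. Values near the array median (Sox2, Sox9) and at the top of the scale (Sftpc) limit what can be seen.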
